A study of Mus musculus with 6 samples.

Results

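The genes described here encode the voltage-gated sodium channels (Scn), the voltage-gated calcium channels and their auxiliary subunits (Cacna, Cacnb, Cacng and Cacna2d), the hyperpolarisation-activated pacemaker channels (Hcn) and the connexins of gap junctions (Gja, Gjb, Gjc, Gjd and Gje). They were chosen by gene symbol, with earlier results of these data known, and 54 of the 19938 genes with an array row of their own matched. Where a gene had several rows, the one brightest on average stood for it. RNA came from whole hearts of 6 male FVB mice, an inbred albino strain, and each heart was measured on 1 Affymetrix Mouse Gene 1.0 ST array. In 3 mice the A2a-R transgene over-expressed the adenosine A2a receptor in an inducible, heart-restricted way, and 3 littermates were wild type. All 6 mice had undergone transverse aortic constriction, surgery that constricts the aorta and makes the left ventricle pump against a raised pressure, at 8 weeks of age, and hearts were taken 14 weeks later. The labels name neither the promoter of the transgene nor the time of its induction, nor do they say which chambers were taken. Unoperated hearts and the receptor transcript itself were not analysed here, so the labels of the transgenic hearts were not checked through the transgene.

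In a working heart muscle cell, sodium channels start the action potential, L-type calcium channels carry the calcium that triggers contraction, and connexins pass the current from cell to cell at the intercalated disc. HCN channels carry the pacemaker current of the sinoatrial node and bind cyclic AMP directly, and L-type channels carry more current when protein kinase A is active. The A2a receptor couples to the stimulatory G protein and so drives cyclic AMP up. HCN and T-type calcium channel genes are active in the fetal ventricle and are known to return in the overloaded one.

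None of the 54 genes was called different between transgenic and wild-type hearts. The fit was limma across all 21789 rows with 1 gene symbol, a call was a Benjamini-Hochberg adjusted p below 0.05, and 0.993% of all genes were called by that rule. The smallest adjusted p was 0.134, for Hcn2. At an unadjusted p below 0.05 there were 4 genes of 54, or 7.41%, where the background over all genes was 14.6%. Of these, Hcn2, Cacna1s and Cacnb4 were lower in the transgenic hearts (8.26% of all genes) and Scn10a was higher (6.32% of all genes). The genotypes were fully separate, with no overlap between their hearts, in 5 genes of 54, or 9.26%, against 20.2% of all genes. These were the same 4 and Cacna1h, with 1 higher (background 7.79%) and 4 lower (background 12.4%). Both shares lay below the background.

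The differences were small as well as uncalled. On the log2 scale the median transgenic minus wild-type difference was 0.02 over the 54 genes, with quartiles of -0.06 and 0.05, and -0.01 over all genes, with quartiles of -0.08 and 0.06. Of the 54 genes 30 were higher, or 55.6%, against 45.2% of all genes, 23 were lower and Scn3b had equal means. The largest difference of the family was that of Hcn2, 1.26-fold, and 3.16% of all genes differed by more. The 95% intervals reached down to -0.52 for Hcn2 and up to 0.45 for Scn4b. As folds, these outermost bounds are 1.44-fold lower and 1.37-fold higher. The number of arrays, 3 per group, limits the precision, and an uncalled gene is not shown to be unchanged. RMA values compress changes of dim rows, so these bounds are on the array's own scale.

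**Figure D1:**
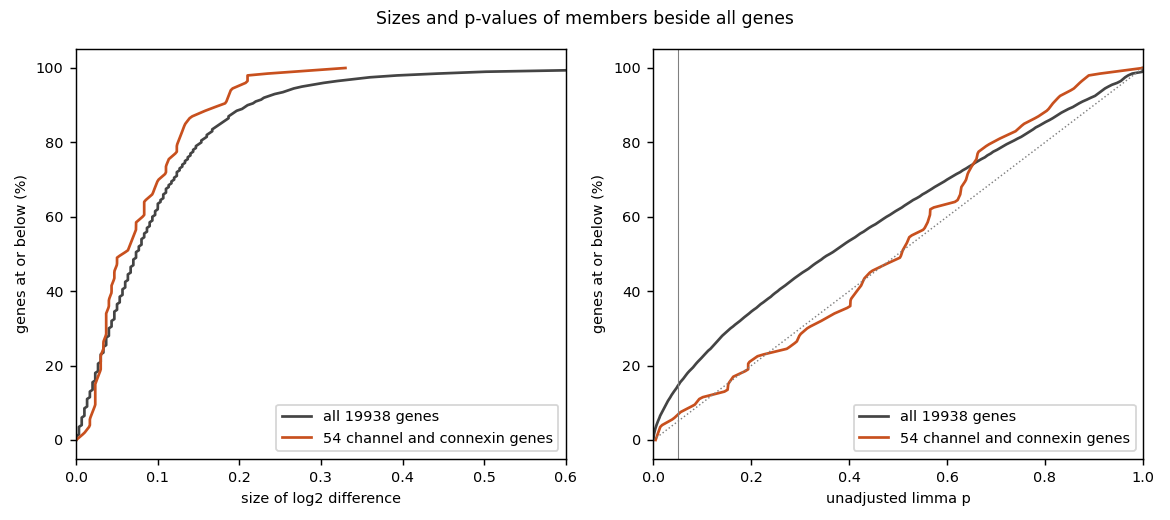
Cumulative share of genes (y axis, percent) by the size of the log2 difference (left) and by the unadjusted limma p (right), for the 54 channel and connexin genes (orange) and all 19938 genes (grey). The grey vertical line marks the threshold of 0.05, below which lie 7.41% of the family and 14.6% of all genes, and the dotted diagonal is a uniform spread of p.

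Many of these genes are best known in neurons, retina, lens, skin or skeletal muscle, so a floor for dim rows was needed. It was set at the 95th percentile of the mean log2 value over 1210 rows of olfactory and vomeronasal receptors, genes of the sensory epithelium of the nose, which came to 6.23. By it 29 of the 54 genes lay above background and 25 did not. The genes above it include some best known outside the heart, such as the neuronal Cacng2, Cacng7 and Cacna1a and the lens connexin Gja3, while Cacnb2 of heart muscle lay below it. A difference in a row below that floor may carry little of the gene's own signal. Among the 29 genes above the floor, 3 had an unadjusted p below 0.05, or 10.3%, against 16.3% of all genes above it.

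The sequences just upstream of 4 genes are shown because their data anchor the account: Hcn2, Cacna1s and Scn10a had the smallest p-values of the family, and Gja1 encodes the main ventricular connexin. Each is the 250 bases before the RefSeq start on GRCm38.p6, 5′ to 3′ on the gene's strand. Capitals mark TGACG, the short form of the cAMP response element, whose letters the cyclic AMP-activated factor CREB recognises, and the GC box GGGCGG, a site of Sp-family factors, each on either strand. The lines give Hcn2 at chr10:79716384-79716633 (plus strand), Cacna1s at chr1:136052561-136052810 (plus), Scn10a at chr9:119719033-119719282 (minus) and Gja1 at chr10:56377050-56377299 (plus).
Hcn2: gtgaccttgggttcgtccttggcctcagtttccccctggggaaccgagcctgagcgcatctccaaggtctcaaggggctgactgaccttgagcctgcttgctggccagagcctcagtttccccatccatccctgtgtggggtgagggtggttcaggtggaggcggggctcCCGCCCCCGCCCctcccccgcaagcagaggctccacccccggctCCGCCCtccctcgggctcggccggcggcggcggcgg
Cacna1s: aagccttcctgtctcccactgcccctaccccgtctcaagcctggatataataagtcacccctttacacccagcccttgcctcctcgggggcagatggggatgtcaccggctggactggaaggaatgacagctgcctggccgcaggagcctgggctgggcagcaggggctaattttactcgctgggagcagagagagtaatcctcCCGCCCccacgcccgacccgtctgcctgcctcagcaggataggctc
Scn10a: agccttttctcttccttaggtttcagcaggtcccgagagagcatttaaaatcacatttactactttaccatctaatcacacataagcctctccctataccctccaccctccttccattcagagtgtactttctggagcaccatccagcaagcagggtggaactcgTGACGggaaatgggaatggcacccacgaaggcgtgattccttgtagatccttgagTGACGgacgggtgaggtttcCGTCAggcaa
Gja1: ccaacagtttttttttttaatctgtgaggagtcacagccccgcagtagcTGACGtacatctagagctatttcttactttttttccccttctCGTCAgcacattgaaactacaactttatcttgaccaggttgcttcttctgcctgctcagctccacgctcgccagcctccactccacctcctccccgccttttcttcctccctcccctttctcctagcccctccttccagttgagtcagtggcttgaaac

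The Hcn2 window held 3 GC boxes, of which 2 adjoin, and no TGACG, the Cacna1s window held 1 GC box and no TGACG, the Scn10a window 3 short elements and the Gja1 window 2. Of the 54 genes 41 had a window in the RefSeq table, with 55 windows in all, since some genes have several starts. TGACG stood in 12 of the 55 windows, or 21.8%, and in 17.8% of all 32851 windows of that length. GGGCGG stood in 38.2% of the family's windows and in 32.7% of all. The full element TGACGTCA, which contains the short element on both strands, was in 0 of the 55 and in 1.55% of all windows, and the T-box letters AGGTGTGA were in 0 and in 1.12%. Such matches describe letters only, and whether any factor binds there in these hearts was not measured.

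The HCN genes showed the largest difference of the family. Hcn2, the main HCN gene of ventricular muscle and one of the pacemaker subunits of the node, had log2 values of 8.43, 8.65 and 8.59 in the wild-type hearts and 8.10, 8.34 and 8.24 in the transgenic hearts. Every transgenic heart was below every wild-type heart, by a gap smaller than the spread within either group. The means were 8.56 ± 0.11 and 8.23 ± 0.12 (SD, n = 3 each), a difference of -0.33 ± 0.08 (SE) with a 95% interval of -0.52 to -0.14, and limma gave an adjusted p of 0.134. The adjusted p was 0.0496 with a trended and robust variance prior, the single alternative in which any gene of the family was called. Without 1 heart at a time the difference ran from -0.39 to -0.27, and no such fit called it (limma adjusted p 0.137 to 0.334).

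Hcn4, the dominant subunit of the sinoatrial node, stood at 7.38, 7.66 and 7.36 in wild-type and 7.39, 7.53 and 7.42 in transgenic hearts. The groups overlapped almost fully, and the difference was -0.02 with a 95% interval of -0.23 to 0.19. Hcn3, below the receptor floor, differed by -0.12, so all 3 measured HCN genes had a lower transgenic mean, with 1 at an unadjusted p below 0.05. In wild-type heart 2 all 3 stood at their highest value.

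Among 18 measured genes of the fetal and hypertrophy program, 9 were lower and 2 higher at an unadjusted p below 0.05. Over all genes 8.26% were lower and 6.32% higher at that p, which is the background for this and every later list. The program's mean deviation per heart was 0.35, 0.00 and 0.14 in wild-type and -0.08, -0.32 and -0.09 in transgenic hearts. In limma 3 of the 18 were called lower and 1 higher, where 0.993% of all genes were called. Nppa, which encodes atrial natriuretic peptide, fell by 1.18 ± 0.21 (SE, limma adjusted p = 0.0456), and Synpo2l, an actin-associated protein of heart muscle, fell by 0.50 ± 0.08 (limma adjusted p = 0.0278). The third that fell was Acta1, given with the skeletal muscle markers, and the one that rose was Uchl1, a ubiquitin hydrolase abundant in neurons, by 0.44 ± 0.08 (limma adjusted p = 0.0448). By genotype, Hcn2 and the mean of this list both stood lower in the transgenic hearts. Within the wild-type group the lowest Hcn2 value was in heart 1, where the list was highest. Within the transgenic group Hcn2 was highest in heart 2, where the list was lowest. Such an order rests on 3 hearts per group. The part of this program in the Hcn2 difference was not tested. In whole-heart RNA, fewer cells of a type and less RNA per cell cannot be told apart. Among 17 heart muscle markers, 1 was higher and 1 lower at an unadjusted p below 0.05, with a median difference of -0.01.

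**Figure D2:**
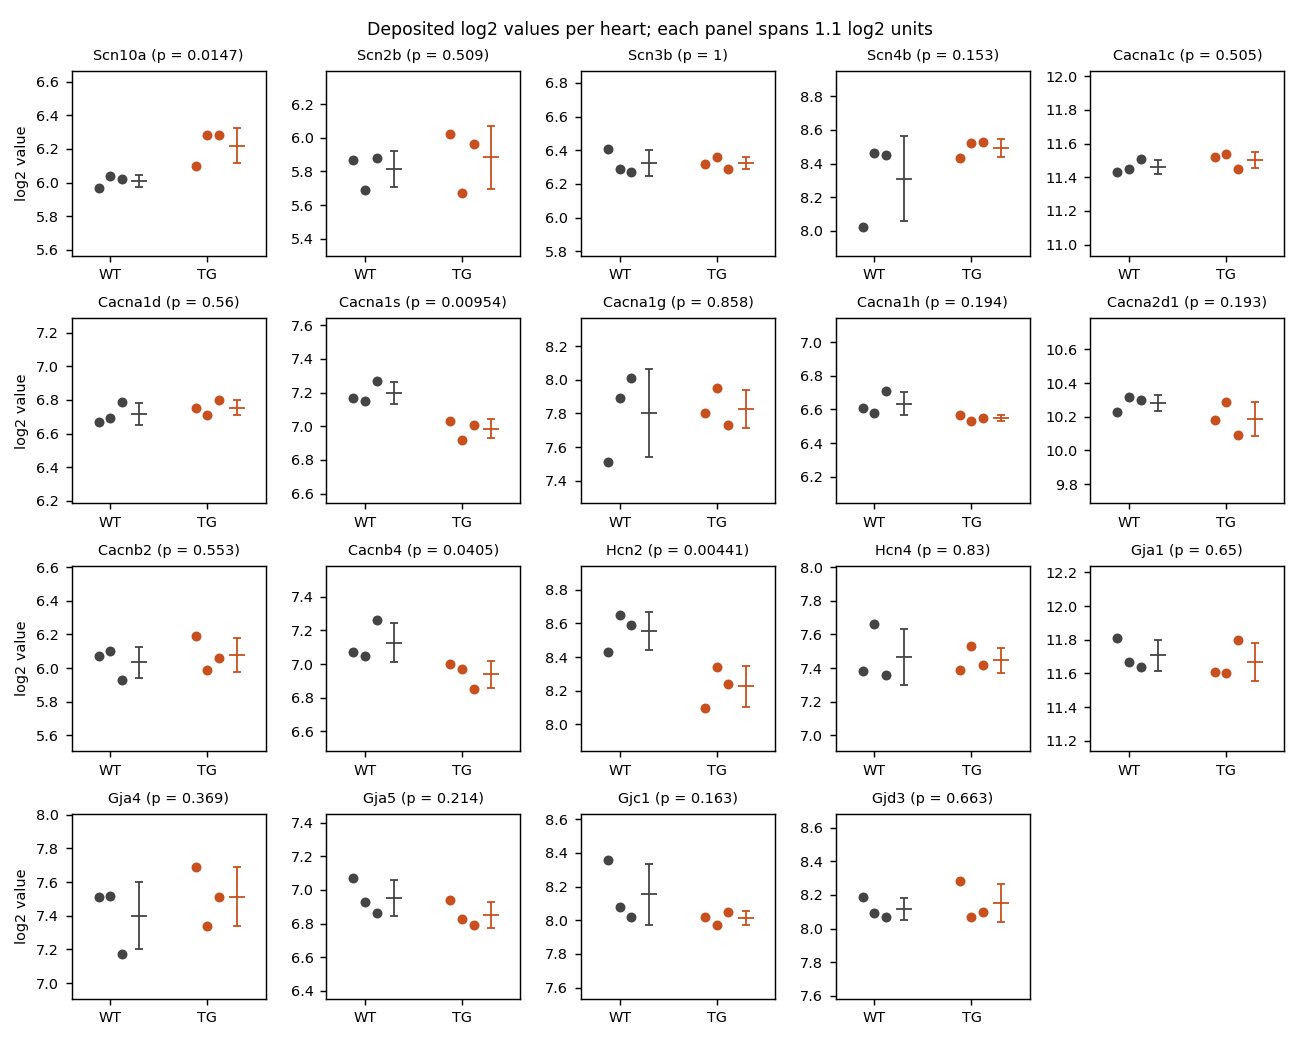
Deposited log2 values (y axis) of 19 genes in each wild-type (WT, grey) and transgenic (TG, orange) heart, with the mean and SD of 3 hearts beside the points; titles give the unadjusted limma p, and the panels share a span but not an origin. In Hcn2, Cacna1s, Cacnb4, Scn10a and Cacna1h the groups do not overlap, and in Scn4b, Cacna1g and Gjc1 wild-type heart 1 stands apart from the rest.

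The pore-forming genes of the L-type calcium channel were close between the groups, except for the one of skeletal muscle. Cacna1c, which encodes the L-type pore of the ventricle, was at 11.43, 11.45 and 11.51 in wild-type and 11.52, 11.54 and 11.45 in transgenic hearts. The ranges overlapped, and the difference of 0.04 ± 0.06 (SE) had a 95% interval of -0.09 to 0.17, one of the narrowest of the family. Cacna1d, the L-type pore of nodal and atrial cells, read 6.67, 6.69 and 6.79 against 6.75, 6.71 and 6.80 and differed by 0.04 (interval -0.10 to 0.18). Cacna1s, the voltage sensor of skeletal muscle, was at 7.17, 7.15 and 7.27 in wild-type and 7.03, 6.92 and 7.01 in transgenic hearts. All transgenic values lay below all wild-type values, with a difference of -0.21 ± 0.06 (SE, limma adjusted p = 0.182). Cacna1f, a retinal pore gene, differed by -0.07.

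Cacna1s also belongs to a list of 20 skeletal muscle markers, 4 of which were lower and 1 higher at an unadjusted p below 0.05. Acta1, the skeletal alpha-actin, fell by 1.50 ± 0.25 (SE, limma adjusted p = 0.0375), and Chrna1, a subunit of the muscle acetylcholine receptor, was at -0.43 (limma adjusted p = 0.0791). The 1 higher gene was Myh1, a myosin of skeletal muscle, at 0.19 (limma adjusted p = 0.203). By their means 11 of the 20 were higher and 9 lower in the transgenic hearts. The list's mean deviation was 0.08, 0.04 and 0.03 in wild-type and 0.03, -0.15 and -0.03 in transgenic hearts, and its median difference was 0.02. The part of such markers in the Cacna1s value was not tested.

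Of the T-type pores, which open at low voltage and serve pacemaking, 0 of 3 had an unadjusted p below 0.05. Cacna1g was at 7.51, 7.89 and 8.01 in wild-type and 7.80, 7.95 and 7.73 in transgenic hearts. Wild-type heart 1 was the lowest of all, and the difference of 0.02 became -0.12 without it, with an interval of -0.27 to 0.31 over all hearts. Cacna1h, the T-type pore known to return in the loaded ventricle, was at 6.61, 6.58 and 6.71 in wild-type and 6.57, 6.53 and 6.55 in transgenic hearts. The groups did not overlap, by a gap of 1 step of the second decimal, and the difference was -0.08 ± 0.06 (SE, limma adjusted p = 0.571). Cacna1i, the third T-type pore, differed by -0.07 and was not above the receptor floor. The neuronal pores Cacna1a, Cacna1b and Cacna1e lay between 0.02 and 0.05, with 0 of the 3 at an unadjusted p below 0.05.

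Auxiliary calcium channel subunits, which set the trafficking and gating of the pore, gave 1 gene of 14 with an unadjusted p below 0.05. Cacnb4, a beta subunit best known in the brain, was at 7.07, 7.05 and 7.26 in wild-type and 7.00, 6.97 and 6.85 in transgenic hearts. The groups were separate but close, and the difference was -0.19 ± 0.08 (SE, limma adjusted p = 0.312). Its size depended on single hearts, since it was -0.12 without wild-type heart 3 and -0.14 without transgenic heart 3. Cacnb2, the principal beta subunit of heart muscle, read 6.07, 6.10 and 5.93 against 6.19, 5.99 and 6.06, overlapped, differed by 0.05 (interval -0.13 to 0.22) and was not above the receptor floor in its row. Cacnb1, the beta subunit of skeletal muscle, differed by -0.06.

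Cacna2d1, the alpha-2-delta subunit of ventricular muscle and a binding site of gabapentin, was at 10.23, 10.32 and 10.30 in wild-type and 10.18, 10.29 and 10.09 in transgenic hearts. The difference was -0.10 (interval -0.25 to 0.06), and its second row on the array also gave -0.10. Cacna2d2 was at 6.78, 6.91 and 7.07 against 6.82, 6.75 and 6.71, a difference of -0.16 with a limma adjusted p of 0.415, and Cacna2d3 and Cacna2d4 differed by 0.12 and 0.02. The gamma family, which holds a skeletal muscle subunit (Cacng1) and regulators of glutamate receptors (Cacng2, Cacng3, Cacng4 and Cacng8), had 7 measured genes, from -0.04 for Cacng5 to 0.13 for Cacng8. Of the 7, 0 had an unadjusted p below 0.05. In all 7 of these genes transgenic heart 2 was the lowest transgenic heart, and in Cacng8 it read 6.28 beside 6.79 and 6.64. That heart was also the lowest transgenic heart in 42.5% of all genes.

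The sodium channel pores measured here are mostly those of nerve cells. Of the 8 genes 7 had a higher transgenic mean, where 45.2% of all genes did, and the median was 0.07. But 6 of the 8 were not above the receptor floor, and the 2 above it, Scn2a and Scn7a, each differed by 0.03. Scn10a, the channel of pain-sensing neurons that is also reported in cardiac nerve cells, was at 5.97, 6.04 and 6.02 in wild-type and 6.10, 6.28 and 6.28 in transgenic hearts. The transgenic hearts were all higher, with a difference of 0.21 ± 0.07 (SE, limma adjusted p = 0.214), but the row lay below the floor, so no level of this transcript above background is shown. Among 22 neuron markers, 3 were higher and 1 lower at an unadjusted p below 0.05, against 6.32% and 8.26% of all genes. Their median difference was 0.07, and 10 lay above the floor. The 1 neuron marker called in limma was Uchl1, higher by 0.44 (limma adjusted p = 0.0448). The mean deviation of the 22 was 0.00, -0.07 and -0.06 in wild-type and 0.08, -0.02 and 0.06 in transgenic hearts, and their part in the Scn10a value was not tested.

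Scn7a, a sodium-sensing relative that does not open with voltage, was at 9.77, 9.56 and 9.63 in wild-type and 9.72, 9.68 and 9.66 in transgenic hearts, with a difference of 0.03 (interval -0.12 to 0.19). Scn2a, a channel of central neurons, had 14 rows on the array, and the brightest differed by 0.03. All its other rows lay below the receptor floor, with means of 5.76 or less. The rows did not move together: the 14 ran from -0.37 to 0.50, with 9 higher and 5 lower. An unadjusted p below 0.05 was found in 3 rows, all below the floor, and the smallest limma adjusted p was 0.147. Scn3a differed by 0.13 and Scn8a by 0.11, and Scn1a, Scn9a and Scn11a by -0.04, 0.08 and 0.07.

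The sodium channel beta subunits, adhesion-type proteins that accompany the pore, gave no unadjusted p below 0.05. Scn4b was at 8.02, 8.46 and 8.45 in wild-type and 8.43, 8.52 and 8.53 in transgenic hearts. Wild-type heart 1 alone was low, and the difference of 0.18 ± 0.12 (SE) shrank to 0.04 without it. Scn3b read 6.41, 6.29 and 6.27 against 6.32, 6.36 and 6.29, with a difference of 0.00 and an interval of -0.14 to 0.14. Scn2b, below the receptor floor, was at 5.87, 5.69 and 5.88 against 6.02, 5.67 and 5.96, a difference of 0.07.

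**Figure D3:**
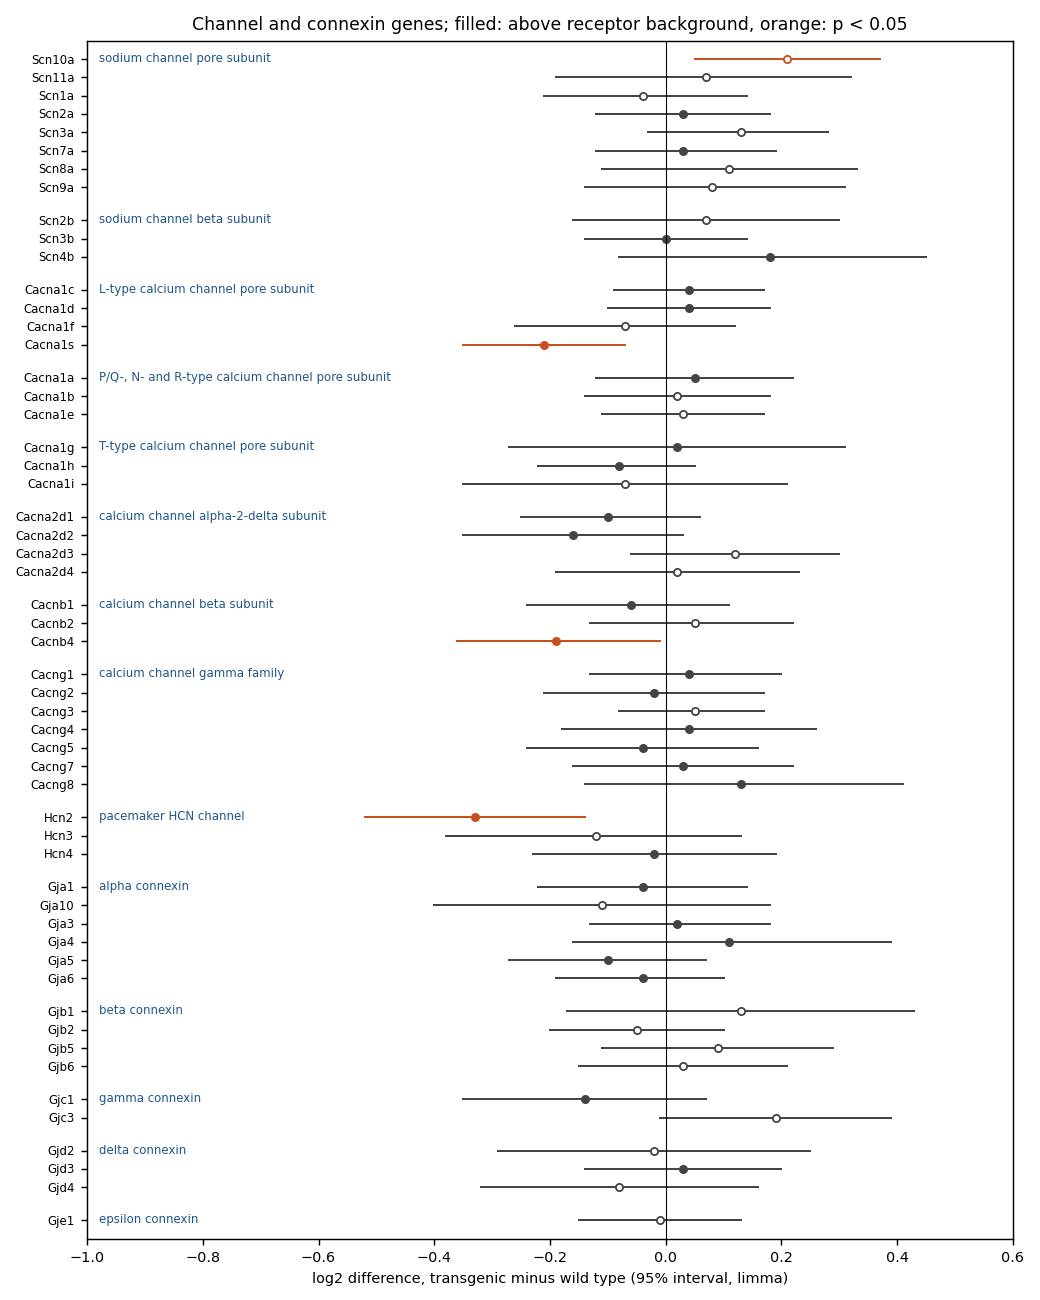
Log2 difference, transgenic minus wild type, with 95% interval from limma (x axis) for each of the 54 genes, grouped by role. Filled points lie above the receptor floor and orange marks an unadjusted p below 0.05; the intervals of 50 genes include 0, and Hcn2 has the point farthest from 0 at -0.33.

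The connexins were close to level in the transgenic hearts, with 0 of 16 at an unadjusted p below 0.05. Gja1, which encodes the connexin of ventricular intercalated discs, was at 11.81, 11.67 and 11.64 in wild-type and 11.61, 11.60 and 11.80 in transgenic hearts. The groups overlapped, and the difference of -0.04 ± 0.08 (SE) had an interval of -0.22 to 0.14. Gja5, the connexin of atria, the His-Purkinje system and arterial endothelium, was at 7.07, 6.93 and 6.86 against 6.94, 6.83 and 6.79, with a difference of -0.10 (interval -0.27 to 0.07). Gjc1, the connexin of nodal tissue and the early heart, was at 8.36, 8.08 and 8.02 in wild-type and 8.02, 7.97 and 8.05 in transgenic hearts. Wild-type heart 1 stood above the other 5, and the difference of -0.14 (limma adjusted p = 0.530) was -0.04 without that heart. Gjd3, a connexin that slows atrioventricular conduction in the mouse, read 8.19, 8.09 and 8.07 against 8.28, 8.07 and 8.10, a difference of 0.03 (interval -0.14 to 0.20).

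Gja4, an endothelial connexin, was at 7.51, 7.52 and 7.17 in wild-type and 7.69, 7.34 and 7.51 in transgenic hearts. The ranges overlapped, with a difference of 0.11 that was 0.00 without wild-type heart 3. Of 12 arterial endothelial markers, a list that includes Gja4 and Gja5, 5 were lower and 0 higher at an unadjusted p below 0.05, with a median difference of -0.09, and 0 were called in limma. Efnb2 and Unc5b, arterial guidance molecules, were at -0.38 and -0.35 (limma adjusted p = 0.102 and 0.109). The list's mean deviation was 0.13, 0.06 and -0.03 in wild-type and -0.04, -0.09 and -0.04 in transgenic hearts, and its part in the Gja5 value was not tested.

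Of the other connexins, Gja3 and Gja6 lay above the receptor floor and the rest did not. Gjc3, a connexin of myelinating glia, was at 5.52, 5.36 and 5.67 in wild-type and 5.66, 5.68 and 5.78 in transgenic hearts, a difference of 0.19 (limma adjusted p = 0.352) below the receptor floor. Among 14 Schwann cell markers 1 was higher and 1 lower at an unadjusted p below 0.05, with a median of 0.03. The 4 beta connexins of liver, skin and inner ear lay between -0.05 for Gjb2 and 0.13 for Gjb1, and 0 of them was above the floor. Gja3, Gja6 and Gja10 differed by 0.02, -0.04 and -0.11, Gjd2 and Gjd4 by -0.02 and -0.08, and Gje1 by -0.01.

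Several of the genes lie next to each other on the chromosome in the RefSeq order of protein-coding genes, and their differences can be read in pairs. Beside Scn10a at 0.21 lay Scn11a at 0.07, and beside Scn4b at 0.18 lay Scn2b at 0.07. Gja3, Gjb2 and Gjb6 follow each other and differed by 0.02, -0.05 and 0.03. Cacng1, Cacng4 and Cacng5 also follow each other, at 0.04, 0.04 and -0.04. Of the family's genes with an unadjusted p below 0.05, only Scn10a had a neighbour in the family, so no pair could hold more than 1 of them.

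Heart by heart, the 54 genes did not shift as a block by genotype. Their median deviation from the mean of the 6 hearts was 0.03, -0.02 and -0.02 in the wild-type hearts and 0.03, -0.06 and 0.03 in the transgenic hearts. Transgenic heart 2 was the lowest transgenic heart in 28 of the 54 genes, or 51.9%, and in 42.5% of all genes, so the pattern was shared with the array as a whole. Wild-type heart 1 was the highest wild-type heart in 23 of the 54 genes, or 42.6%, against 36.6% of all genes.

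**Figure D4:**
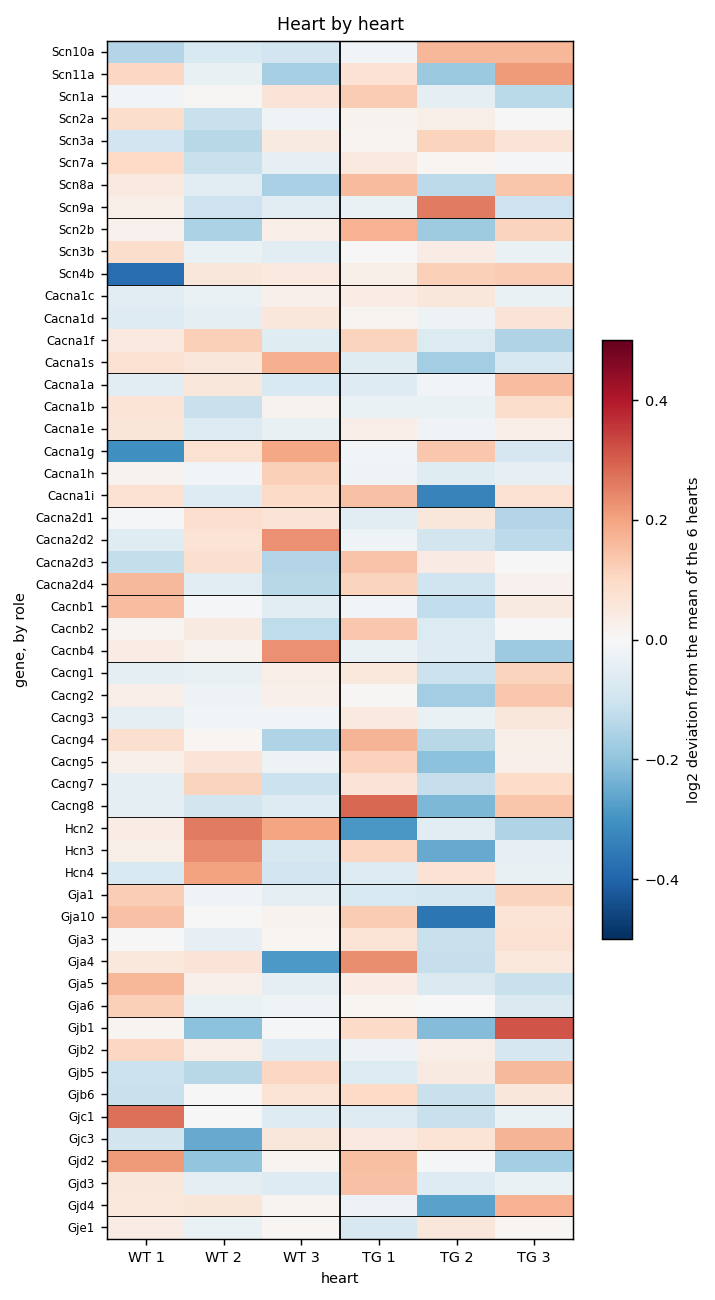
Deviation of each heart's log2 value from the mean of the 6 hearts (colour, red above and blue below) for the 54 genes (rows, grouped by role) in the 3 wild-type and 3 transgenic hearts (columns). Rows such as Hcn2 and Cacna1s change colour at the vertical line between the genotypes while most mix colours on both sides, and the column of transgenic heart 2 is the bluest, with a median of -0.06.

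The proteins that work beside these channels were looked at through 7 lists of 122 measured genes that are not in the family. In limma 0 of the 122 were called. An unadjusted p below 0.05 was found for 25 of them, 11 higher and 14 lower, or 20.5%. The background was 14.6% over all genes and 16.3% over genes above the receptor floor, where most of the partner genes lay. Their median difference was -0.04, with 40 of the 122 higher and 81 lower. Over all genes the median was -0.01 and 45.2% were higher, and over genes above the floor the median was -0.030, close to that of the partners. These lists were written with earlier results on these hearts known.

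The intercalated disc list held the widest differences of the 7. Of its 22 measured genes 2 were higher and 5 lower at an unadjusted p below 0.05, with a median of -0.09. Both higher genes encode desmosomal cadherins, the adhesion proteins that hold muscle cells together. Dsc2 was at 7.92, 8.05 and 8.21 in wild-type and 8.49, 8.60 and 8.44 in transgenic hearts, a difference of 0.45 ± 0.08 (SE, limma adjusted p = 0.0605). Dsg2 was at 8.04, 8.26 and 8.34 against 8.59, 8.74 and 8.64, a difference of 0.44 ± 0.09 (limma adjusted p = 0.0688). Both were higher in every transgenic heart than in any wild-type heart. The coxsackie-adenovirus receptor Cxadr, which is needed for atrioventricular conduction, was at -0.22 and the actin-binding Nexn at -0.23 (limma adjusted p = 0.131 and 0.193). Tjp1, the scaffold that binds the tail of the Gja1 product, was at -0.10, and the cadherin Cdh2 at 0.00.

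Among 24 sodium channel partners 1 was higher and 2 lower at an unadjusted p below 0.05, with a median of -0.06. Camk2d, a calmodulin-dependent kinase of heart muscle, was at 11.00, 10.99 and 11.00 in wild-type and 10.73, 10.75 and 10.68 in transgenic hearts, a difference of -0.28 ± 0.05 (SE, limma adjusted p = 0.0651). The wild-type values were nearly identical and all above the transgenic ones. Slmap, a membrane protein of the T-tubule system, was at -0.17, Fgf11, a fibroblast growth factor homologue of the kind that binds sodium channel tails, at 0.20, and the scaffold Dlg2 at -0.16.

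Among 22 calcium channel partners 4 were higher and 1 lower at an unadjusted p below 0.05, with a median of -0.01. Rrad, the small GTPase that restrains the L-type channel until protein kinase A releases it, was at 9.95, 9.66 and 9.71 in wild-type and 10.10, 9.90 and 10.05 in transgenic hearts. The ranges overlapped through wild-type heart 1, and the difference was 0.24 ± 0.09 (SE, limma adjusted p = 0.273). Ryr2, the release channel that L-type calcium opens, was at 0.25 ± 0.07 (limma adjusted p = 0.149), the calmodulin gene Calm2 at 0.20 and Cabp1, a calcium-binding protein that modulates calcium channels, at -0.29. Of 11 pacemaker channel partners 1 was lower at an unadjusted p below 0.05, Trpc1, a cation channel, at -0.18, and Kcne2, which associates with HCN channels, was at -0.08. Calhm5 at -0.19 was the single one of 7 pannexins and calcium homeostasis channels with such a p, and Panx1 was at 0.00. Catsper2 at -0.17, a sperm channel gene, was the single one in the list of other voltage-gated and leak cation channels, where Nalcn, the sodium leak channel, was at -0.08.

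**Figure D5:**
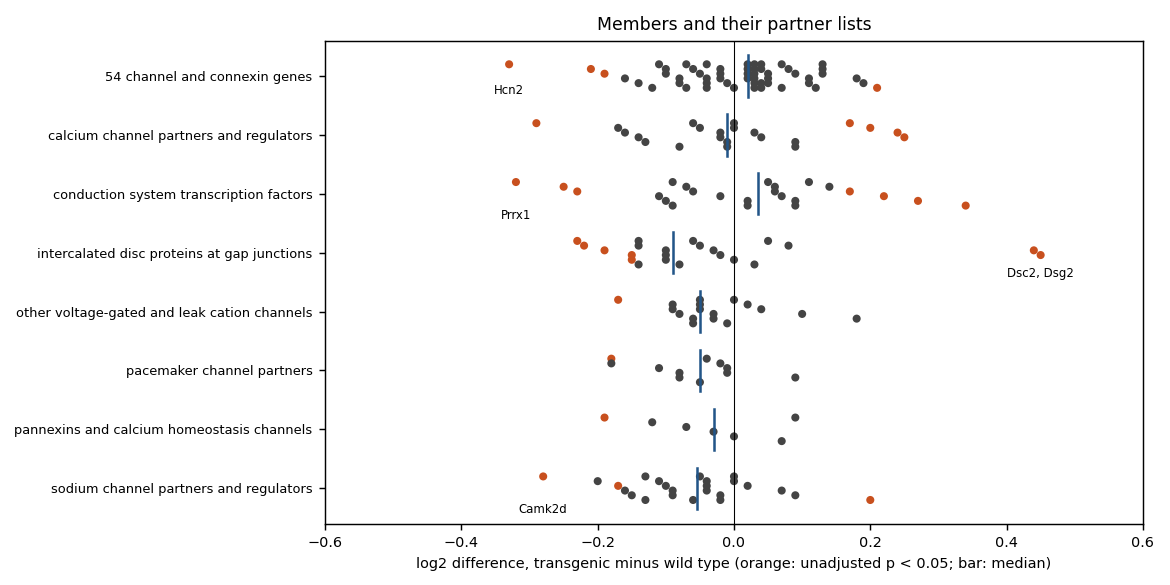
Log2 difference, transgenic minus wild type (x axis), of the 54 channel and connexin genes and of each list of partner genes (1 point per gene, orange at an unadjusted p below 0.05, blue bar at the median). Dsc2 at 0.45 and Dsg2 at 0.44 lie farthest to the right and Hcn2 at -0.33 farthest to the left.

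Transcription factors of the conduction system, which set where channels and connexins are made, gave 4 higher and 3 lower of 24 at an unadjusted p below 0.05, with a median of 0.04. Prrx1, a homeobox factor of mesenchymal cells, was at -0.32 ± 0.06 (SE, limma adjusted p = 0.0502). Irx4, the ventricular Iroquois factor, was at 9.87, 9.90 and 9.84 in wild-type and 9.59, 9.63 and 9.63 in transgenic hearts, a difference of -0.25 (limma adjusted p = 0.0848). Tbx5, a T-box activator of conduction genes, was at 0.34 (0.121) and Mef2c, a muscle factor, at -0.23 (0.134), while Tbx3, the repressor that maintains the node, was at 0.05.

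In a list of 19 conduction system markers, 2 were higher and 2 lower at an unadjusted p below 0.05. In limma 3 were called, 2 higher and 1 lower, where 0.993% of all genes were called. Bmp2, a growth factor of the atrioventricular canal, rose by 0.89 ± 0.09 and Rgs6, which ends G protein signalling at the muscarinic receptor of nodal cells, rose by 0.62 ± 0.09, while Smoc2, a matrix protein, fell by 0.44 ± 0.07 (SE, limma adjusted p = 0.00535, 0.0249 and 0.0243). Igfbp5, an insulin-like growth factor binding protein, was at -0.39 (limma adjusted p = 0.0845). The channel and connexin genes of the same list, Hcn4, Cacna2d2, Gjd3 and Gja5, were not called, and the list's median was 0.02. Its mean deviation was 0.01, -0.03 and -0.05 in wild-type and 0.09, 0.01 and -0.03 in transgenic hearts. Among 14 atrial markers 1 was higher, Tbx5, and 1 lower, Nppa, at an unadjusted p below 0.05. Of these Nppa alone was called, and the median was -0.02. Among 16 smooth muscle and pericyte markers 1 gene had an unadjusted p below 0.05, Acta2, the smooth muscle actin, which rose by 0.73 ± 0.09 (SE, limma adjusted p = 0.0106), and the median was 0.02. Among 18 fibroblast markers 2 were lower and 0 higher at an unadjusted p below 0.05, with a median of -0.02, and 1 was called, Wif1, an inhibitor of Wnt signalling, which fell by 0.72 ± 0.09 (SE, limma adjusted p = 0.0106). Among 17 general endothelial markers 2 were lower, 0 higher and 0 called, with a median of -0.06. Among macrophage markers 10 of 19 were higher and 0 lower at an unadjusted p below 0.05, with a median of 0.24, and the lectin gene Lgals3 rose by 0.61 ± 0.06 (SE, limma adjusted p = 0.00423).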

How the data were processed

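The deposited values are log2 expression per array row; they were made with RMA (background correction, quantile normalization and probe summary) and Partek, per the submitters' processing notes, with versions, settings and genome build not given in the sources used here. The table holds 28853 rows in 6 columns, and array means lay between 7.03 and 7.06. Arrays of 1 genotype correlated at r = 0.9958 to 0.9973 across rows and arrays of different genotype at 0.9926 to 0.9957, and no array equalled another.

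Rows were named from the platform annotation: 21789 had exactly 1 symbol, 1621 several and 5443 none. All 54 members' symbols were checked by their Entrez identifiers against RefSeq (GRCm38.p6), and 0 changed. They hold 70 rows, and 3 further rows with several symbols were left out. RefSeq symbols of the same pattern without a row of their own here, 10 in all, were not analysed.

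Transgenic minus wild type was fitted with limma 3.58.1 (R 4.3.3; lmFit and eBayes, 4.1 prior degrees of freedom, no covariate) over all 21789 rows, with Benjamini-Hochberg adjustment over them and a threshold of 0.05. The code was tested on simulated data. The design text gives 3 mice per group. The members, lists and tests were chosen with earlier results of these data known. Genes given heart by heart were those with an unadjusted p below 0.05 and a cardiac core of 21 genes, 17 of which had a row; of each list, called genes and up to 4 with the smallest p were named, and Scn7a, Cacna2d2, Gjc3, Tjp1, Cdh2, Kcne2, Panx1, Nalcn, Tbx3 and the promoter examples were added after their values were seen. Alternatives covered normalization, filters, variance prior, weights, rows, a replicate block and leaving out each heart.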

Additional observations from a re-analysis of the deposited data

How the results depend on the processing

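No gene of the family was called in 15 of 16 alternative settings of limma, and 1 was called with a trended and robust variance prior, Hcn2 (limma adjusted p = 0.0496). Without the dimmest 40% of rows, without rows under the receptor floor and with array weights its limma adjusted p was 0.0604, 0.0707 and 0.0619. With the replicate number as a block 0 genes of the family were called, the adjusted p of Hcn2 was 0.105, the median difference was 0.02 and 4 genes had an unadjusted p below 0.05, 2 higher and 2 lower. Of these, 3 were shared with the reported fit, while Cacnb4 dropped out and Gjc3 came in. Cacnb4 also missed 0.05 after further quantile normalization and without wild-type heart 3, transgenic heart 2 or transgenic heart 3, and Scn10a without transgenic heart 3. Deviations of same-numbered hearts correlated at 0.16, -0.01 and -0.10, and those of differently numbered hearts at -0.21 to 0.23. With 3 hearts per group these values cannot decide whether the numbers paired the hearts. When each heart was left out in turn, 0 genes were called (0 to 0), the median of the family ran from -0.01 to 0.05, and the number at an unadjusted p below 0.05 ran from 2, without transgenic heart 3, to 6, without transgenic heart 2. The other alternatives kept that number between 3 and 6 and the median between 0.00 and 0.04.

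Of the 22 genes of the family given heart by heart, the sign turned for 6, all close to 0 and uncalled. With array weights Cacna1g was at -0.05. With a heart left out, Cacna1g ran from -0.12 to 0.13, Gja1 from -0.10 to 0.02, Hcn4 from -0.07 to 0.08, Cacnb2 from -0.01 to 0.09, Scn7a from -0.01 to 0.09 and Gjd3 from -0.03 to 0.07. The causes were not tested. Of all genes, 198 were called in the reported fit, 95 with the replicate block, 462 without the dimmest 40% of rows, 401 without rows under the receptor floor, 539 with the trended prior, and 80 to 122 without a heart. Dim rows limit what can be said of 25 of the 54 genes.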
